A study of Mus musculus with 8 samples.

Results

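The clustered protocadherin genes are the protein-coding genes of mouse chromosome 18 whose symbols begin with Pcdha, Pcdhb or Pcdhg, and 57 of the 21755 protein-coding genes of chromosomes 1 to 19 and X met this rule. They lie in 3 clusters, all on the plus strand of build mm10. The alpha cluster (chr18:36930184-37187661) holds 14 members, the beta cluster (chr18:37264938-37524479) holds 22 and the gamma cluster (chr18:37661793-37841873) holds 21. Pcdhgb8, annotated as a polymorphic pseudogene, was not a member. The symbol Pcdha11 is used for 2 gene entries in the annotation, and both were kept.

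By the sample labels, each library came from 100000 MEFs, fibroblasts of mouse embryos, on day 3 of their reprogramming. The methods of the study give a lower cell number per CUT&Tag sample. CUT&Tag, in which a transposase tethered by an antibody cuts next to the bound protein, was run with an antibody against the Flag tag of one delivered factor. The factors were Oct4, Sox2, Nanog and Nr5a2, each as the native protein and as a BiD form, in which an N-terminal stretch of SS18 that binds the chromatin remodelling subunit BRG1 was fused to the N-terminus of the factor. The sample titles name the tagged factor but not which other factors the same cells received, and each of the 8 groups is a single library, so no comparison below has a replicate check, and none was tested. All intervals are exact 95% intervals and cover counting error only.

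Clustered protocadherins are cadherin-like adhesion proteins by which neurons tell their own processes from those of other cells. In the alpha and gamma clusters a row of variable first exons, each behind its own promoter, is spliced to shared constant exons at the 3′ end of the cluster, whereas beta genes have no constant exons. Most variable promoters are switched on by chance in single neurons, through CTCF, cohesin and the loss of DNA methylation, and the C-type genes at the ends of the alpha and gamma rows (Pcdhac1, Pcdhac2, Pcdhgc3, Pcdhgc4 and Pcdhgc5) are used more evenly.

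The peak lists held 54794 to 120594 peaks per library, with a median summit height of 16 to 22 tags. They hold no read totals. The reporting summary of the study lists more read pairs for native Oct4 than for Oct4BiD and for native Sox2 than for Sox2BiD, and fewer for native Nanog and native Nr5a2 than for their BiD forms. Summits over the coding exons of Sox2, Nr5a2 and Nanog, where a delivered cDNA could also be cut, were found in both forms of the factor named on the library, and on Nanog also in Oct4BiD (1 summit of 22 tags). No library had one over Pou5f1, so the labels of the Oct4 libraries have no such check. Of 10 fibroblast marker genes, 3 to 9 per library had a summit within 1 kb of the start site, with Pdgfra at none in all 8. Over the 8 libraries together, 9 of 10 fibroblast, 4 of 4 endothelial, 2 of 4 neural, 1 of 4 blood cell and 0 of 4 epithelial markers had one. For all protein-coding genes the share with such a summit was 62.9% in any library and 15.6 to 48.4% per library. A summit at a start site is not a measure of expression.

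Few members had a peak summit at their start site. In all 8 libraries together 8 of the 57 members had a summit within 1 kb of the start (14.0%, interval 6.26 to 25.8%), against 62.9% of all protein-coding genes. The other 49 members had none in any library. No member had a summit in all 8 libraries, as 10.6% of all genes did. The 8 members fell unevenly over the classes. The C-type genes had a summit at 3 of 5, the gamma A genes at 3 of 12, the gamma B genes at 1 of 6 and the beta genes at 1 of 22, and none of the 12 alpha genes other than the C-type ones had any.

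Native Oct4 had a summit at 0 of 57 members, with an interval of 0 to 6.27%, beside 30.3% of all genes. Oct4BiD had 2 members beside 44.8% of all genes. Native Sox2 had 1 member (15.6% of all genes) and Sox2BiD had 6 (38.7% of all genes), or 10.5% of the members with an interval of 3.96 to 21.5%. Sox2BiD also had the longest list, of 120594 peaks, and its count became 1 when held to the length of the native Sox2 list and 0 with the top 20000 peaks. Native Nanog had 1 member (41.2% of all genes) and NanogBiD 2 (43.4%). Native Nr5a2 and Nr5a2BiD had 2 members each, beside 48.4% and 41.5% of all genes. In each of the 8 libraries the share of all genes lay above the interval of the members. These intervals treat the members as independent, although they lie side by side in clusters and many resemble each other. The members were also chosen with earlier results of these data known, so this comparison is a description and not a test. The intervals of the members overlapped between every pair of libraries.

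**Figure D1:**
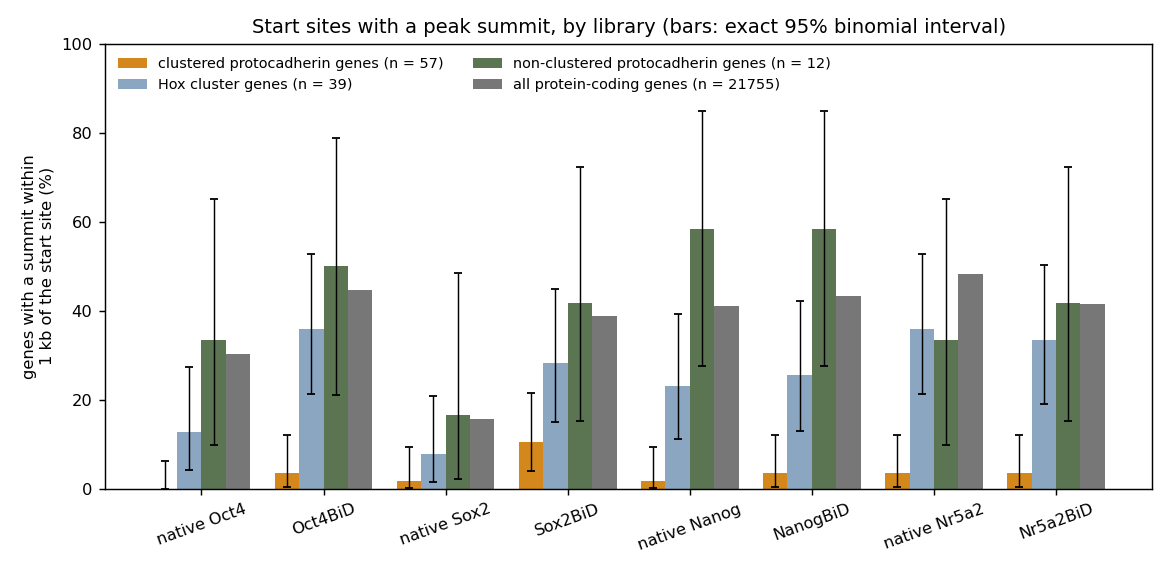
Share of genes with a peak summit within 1 kb of the start site, in percent, for the clustered protocadherin genes, the Hox cluster genes, the non-clustered protocadherin genes and all protein-coding genes, in each of the 8 libraries. Error bars are exact 95% binomial intervals. The clustered protocadherin genes range from 0 of 57 in native Oct4 to 6 of 57 in Sox2BiD and lie below the other bars in every library.

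The protocadherins outside the clusters did not share this pattern. Of 12 non-clustered protocadherin genes, 11 had a start-site summit in some library, as did 62.9% of all genes, and Pcdh9 and Pcdh17 had one in all 8. The count per library went from 2 in native Sox2 to 7 in both Nanog forms. Of 39 Hox genes, which also lie in dense clusters, 25 (64.1%) had a start-site summit in some library, from 3 in native Sox2 to 14 in Oct4BiD and in native Nr5a2. The Hox share was below that of all genes in every library, such as 7.69% against 15.6% in native Sox2. In native Nr5a2 it was 35.9% against 48.4%. Of 13 genes whose products act on the protocadherin clusters, 10 had a start-site summit in some library, among them Ctcf (6 libraries) and the cohesin genes Rad21 (7), Smc1a (7) and Smc3 (8), whereas Stag1, Dnmt3b and Tet1 had none. These lists were compared by their counts and shares alone.

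The start-site summits were concentrated on Pcdhgc3 (ENSMUSG00000102918.1, start at chr18:37806364), which has been tied to dendrite branching. It had a summit in 7 libraries, as did 11.9% of all genes, and another 10.6% of all genes had one in all 8. In NanogBiD the summit lay 233 bp before the start, with 80 tags and a score of 279.71. The score is 10 times −log10 of the p-value that the peak caller gave, and this peak ranked in the top 21.3% of its library. In native Nanog the summit lay 100 bp before the start, with 30 tags and a score of 172.62, at 35.8% of the ranking. Native Nr5a2 had 24 tags and a score of 176.56 at 54 bp before the start, and Nr5a2BiD had 18 tags and 88.08 at 55 bp before it. The Nr5a2 forms thus had their summits 1 bp apart. Native Sox2 had 19 tags and a score of 64.85 at 100 bp before the start. The Sox2BiD summit lay 880 bp before it, with 30 tags and 85.83. Oct4BiD had 27 tags and a score of 109.97 at 77 bp before the start, and only native Oct4 had no summit there. Apart from those of NanogBiD and the native Nanog and Nr5a2 libraries, these peaks ranked in the weaker part of their lists, between 59.4% and 85.4%. All these summits fell in an intron shared by 18 upstream gamma genes.

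Pcdhgc4 (ENSMUSG00000023036.14, start at chr18:37815079), which is needed for the survival of many neurons, had a start-site summit in Oct4BiD and none within 1 kb in native Oct4. In Oct4BiD the peak chr18:37814364-37815595 had 44 tags and a score of 411.81, its summit lay 221 bp before the start, and it ranked in the top 9.74% of its library. It overlapped no native Oct4 peak. The nearest native Oct4 summit was 1438 bp before the start, in the peak chr18:37812866-37813964, with 12 tags and a score of 88.59. NanogBiD also had a summit at Pcdhgc4, at 563 bp before the start with 19 tags and a score of 86.52, whereas native Nanog had none. The Nr5a2 summits nearest to this gene lay farther out, 2150 bp before the start in the native form (25 tags) and 1897 bp in the BiD form (21 tags).

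Pcdhgc5 (ENSMUSG00000102543.5, start at chr18:37819513), the last gene of the gamma cluster, had a start-site summit with Nr5a2 alone. Native Nr5a2 had 44 tags and a score of 125.57 at 209 bp after the start, in the coding exon. Nr5a2BiD had 26 tags and a score of 54.51 at 141 bp after the start, in the untranslated part, which put it among the weakest peaks of its library at 94.1% of the ranking. The nearest Sox2BiD summit lay just outside the limit at 1109 bp before the start, with 18 tags.

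The remaining 5 members with a start-site summit, of 52 that are not C-type, had it in Sox2BiD alone. Pcdhb17 (ENSMUSG00000046387.5, start at chr18:37484795) had 23 tags and a score of 275.77 at 438 bp after the start, where the summit fell in the coding exon. Pcdhga4 (ENSMUSG00000103677.1, start at chr18:37685210) had 13 tags and a score of 152.25 at 9 bp after the start. Pcdhga10 (ENSMUSG00000102222.1, start at chr18:37746993) had 17 tags and a score of 134.53 at 162 bp after the start. The other two were weaker. Pcdhgb2 (ENSMUSG00000102748.1, start at chr18:37689828) had 15 tags and a score of 72.11, and at 959 bp before the start it was the summit closest to the limit of 1 kb from inside. Pcdhga3 (ENSMUSG00000104346.1, start at chr18:37674307) had 13 tags and a score of 60.63 at 76 bp before the start. None of the 5 peaks stood in the top 26% of the Sox2BiD list.

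Compared within a factor, the members with a summit in one form alone had it in the BiD form at a distance of 1 kb and with the full lists. Pcdhgc3 and Pcdhgc4 had one in Oct4BiD and not in native Oct4, as did 15.9% of all genes, and no member had the reverse (1.40% of all genes) or a summit in both forms (28.9%). For Sox2, 5 members had one in Sox2BiD alone (24.0% of all genes), none in native Sox2 alone (0.864%), and Pcdhgc3 in both (14.8%). For Nanog, Pcdhgc4 had one in NanogBiD alone (5.45%), no member in native Nanog alone (3.26%), and Pcdhgc3 in both (37.9%). For Nr5a2, no member had one in Nr5a2BiD alone (2.55%) or in native Nr5a2 alone (9.43%), and Pcdhgc3 and Pcdhgc5 had one in both (39.0%). The share of members in one BiD form alone was below the share of all genes for Oct4, Sox2, Nanog and Nr5a2. The 2 Oct4BiD members became 1 when both Oct4 lists were held to the same number of peaks by score, and the 5 Sox2BiD members also became 1 when this was done for Sox2, with 1 member then in native Sox2 alone. Within 500 bp of the start 1 member was also in native Sox2 alone. Within 2 kb, Oct4BiD alone had 1 member, since the native Oct4 summit before Pcdhgc4 was then counted.

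Over the whole of the 3 clusters, 70 summits were found in the 8 libraries, and 54 of them lay more than 1 kb from any member start. Native Oct4 had 4 summits (interval 1.09 to 10.2) and Oct4BiD 11 (5.49 to 19.7). Native Sox2 had 6 (2.202 to 13.06) and Sox2BiD 15 (8.40 to 24.7). Native Nanog had 9 (4.12 to 17.1) and NanogBiD 8 (3.45 to 15.8), while native Nr5a2 had 12 (6.20 to 21.0) and Nr5a2BiD 5 (1.62 to 11.7). The density of summits in the clusters was below that of the genome in every library, from 0.248 of it in Nr5a2BiD to 0.470 in Sox2BiD, and the highest upper bound of the 8 intervals was 0.879.

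The summits were not spread evenly along the clusters. The alpha array from Pcdha1 to the start of Pcdhac1 had no summit in any library, and the beta cluster had 5, of which 2 were in Oct4BiD, 2 in native Nr5a2 and 1 in Sox2BiD. The gamma cluster from Pcdhga1 to the start of Pcdhgc3 had 26, or 17.98 per 100 kb over the 8 libraries, against 25.1 per 100 kb of the genome. These 26 include the start-site summits of Pcdhgc3 itself in 7 libraries, all of which lay before its start. The 35.5 kb from the start of Pcdhgc3 to the end of the gamma cluster had 25, or 70.4 per 100 kb. The alpha cluster from Pcdhac1 on had 14, or 14.3 per 100 kb. These segments were drawn after the positions of the summits had been seen.

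**Figure D2:**
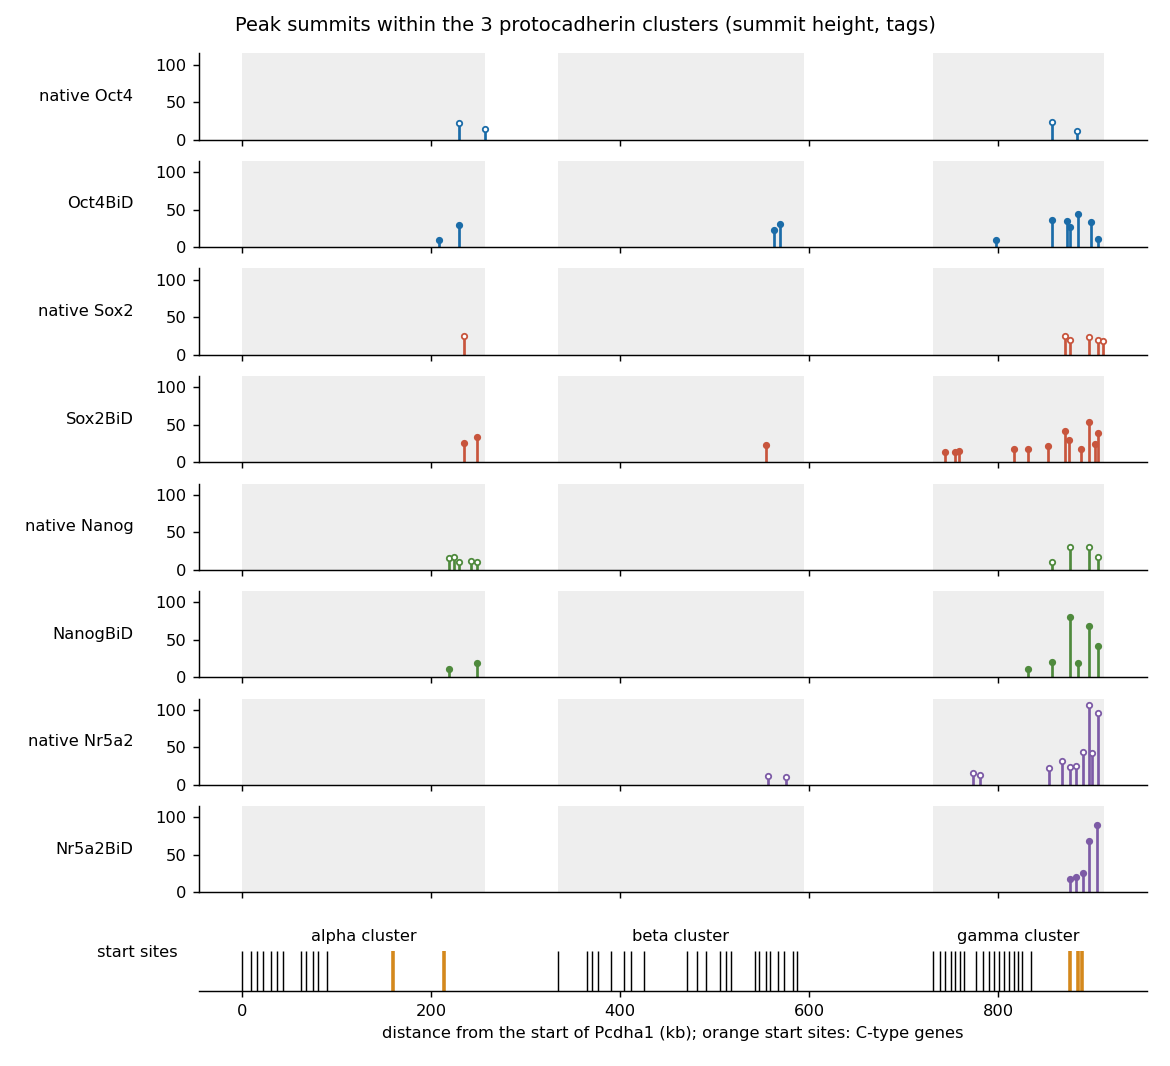
Position of each peak summit in the 3 clusters, as the distance in kb from the start of Pcdha1, with the height of the summit in tags, for the 8 libraries. Grey bands are the clusters, open symbols native forms, filled symbols BiD forms, and the marks at the bottom member start sites. Summits between the clusters are not drawn. The alpha array and most of the beta cluster are empty in all 8 libraries, and the tallest summits stand at the 3′ end of the gamma cluster, up to 107 tags in native Nr5a2.

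The longest stretch without a summit of any library ran for 296 kb, from chr18:37189273 to chr18:37485232, and held the start sites of 17 members from Pcdhb1 to Pcdhb17. Another of 241 kb, chr18:36898064-37138808, held 13 members from Pcdha1 to Pcdhac1. A further stretch of 118 kb held Pcdhb21 and Pcdhb22. Stretches of the genome at least as long as the first numbered 165 of 651128 and covered 4.88% of it, with gaps in the assembly counted in. The distance from a member start to the nearest summit of any library had a median of 72.7 kb for alpha genes, 56.7 kb for beta genes, 3.65 kb for gamma A genes, 4.72 kb for gamma B genes and 0.221 kb for C-type genes, against 0.282 kb for all genes. Of the members, 29 (50.9%) were more than 10 kb from any summit, as were 13.2% of all genes. For the genes at the ends of the clusters this distance was 32.1 kb at Pcdha1, 4.69 kb at Pcdhac2, 75.7 kb at Pcdhb1, 11.5 kb at Pcdhb22 and 2.75 kb at Pcdhga1. Pcdhac1, a C-type gene, lay 48.8 kb from the nearest summit.

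Some genes beside the members had start-site summits, and others had none. Diaph1 and Hdac3 each had one in 7 libraries and Taf7, a subunit of the general transcription factor TFIID that lies between the beta and gamma clusters, in 5, whereas Slc25a2 had none. The readthrough genes Gm42416, Gm37013 and Gm37388, which start inside the alpha array, had none either. Of all genes, 11.9% had a start-site summit in 7 libraries, 5.69% in 5 and 37.1% in none. The space between the beta and gamma clusters held 15 summits over the 8 libraries, and that between the alpha and beta clusters held 1.

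Of the 11 Oct4BiD peaks in the clusters 2 overlapped a native Oct4 peak (18.2%, interval 2.28 to 51.8%), against 42.4% of all Oct4BiD peaks, a value inside that interval. These 2 were also the peaks of native Oct4 with the highest scores in the clusters. After Pcdhgc4, the next by score was chr18:37828404-37829932, with 34 tags and a score of 332.45, in the intron shared by the 21 gamma genes, 9.40 kb after the start of Pcdhgc5. It was absent from the native Oct4 list. The peak chr18:37787010-37787777, 18998 bp before the start of Pcdhgc3, had 36 tags and a score of 326.06 in Oct4BiD and 24 tags and 181.6 in native Oct4, and native Nanog (10 tags) and NanogBiD (20 tags) had a peak there too. The peak chr18:37159414-37160735, 16.3 kb after the start of Pcdhac2, a gene needed for the spacing of serotonergic axons, had 29 tags and a score of 320.22 in Oct4BiD and 22 tags and 156.36 in native Oct4. It fell in an exon of a transcript of Pcdha11. Oct4BiD also had peaks in the untranslated exons of Pcdhb18 (23 tags, score 267.04, 3.45 kb after the start) and Pcdhb19 (31 tags, score 240.72, 2.64 kb after the start), and native Oct4 had no summit in the beta cluster. The last native Oct4 peak, of 14 tags and a score of 67.26, was absent from Oct4BiD. It lay in the final exon shared by alpha genes of 13 symbols, of which Pcdha11 stands for 2 entries.

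In the other direction 2 of the 4 native Oct4 cluster peaks were shared with Oct4BiD (73.1% over all native Oct4 peaks). Sox2BiD shared 5 of its 15 cluster peaks with native Sox2 (41.4% over all its peaks), and native Sox2 shared all 6 with Sox2BiD (86.3%). Native Nanog shared 6 of 9 (72.7%) and NanogBiD 6 of 8 (70.1%). Native Nr5a2 shared 5 of 12 (60.7%) and Nr5a2BiD all 5 (86.0%). In each of the 8 libraries the share over all peaks lay inside the interval of the cluster peaks.

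The log2 ratio of cluster summits, BiD over native, was 1.46 for Oct4 (interval −0.30 to 3.57), where it was 0.78 for all peaks of the same libraries. It was 1.32 for Sox2 (−0.13 to 2.98), where all peaks gave 1.05. For Nanog it was −0.17 (−1.74 to 1.38), against 0.04 for all peaks, and for Nr5a2 −1.26 (−3.12 to 0.35), against −0.50. Each of these 4 intervals included both 0 and the ratio of all peaks. Per 10000 peaks, the clusters held 0.730 summits in native Oct4 and 1.17 in Oct4BiD. With lists of equal length the Oct4 counts were 4 and 7, and the Sox2 counts 6 and 8. With the top 20000 peaks of each library the log2 ratio was 1.58 for Nanog, so its direction turned, and it was 0 for both Sox2 and Nr5a2.

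**Figure D3:**
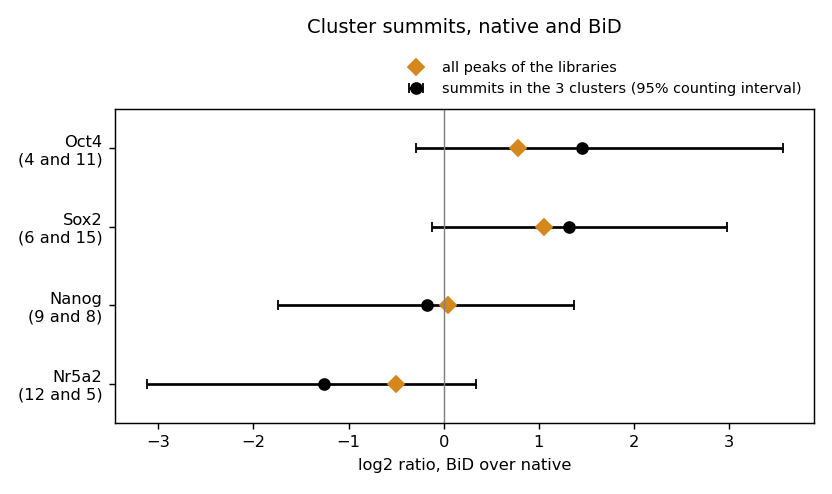
Log2 ratio of the number of peak summits in the 3 clusters, BiD over native, for each factor (black, with exact 95% intervals from the counts), beside the same ratio for all peaks of the libraries (orange). The counts of native and BiD summits stand under each factor. The orange symbol lies inside the black interval for all 4 factors.

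The cluster peaks merged into 36 regions where they overlapped. A single library accounted for 23 of these, namely 8 for Sox2BiD, 6 for native Nr5a2, 5 for Oct4BiD, 2 for native Nanog and 1 each for native Oct4 and native Sox2. Sox2BiD, native Nr5a2 and Oct4BiD also had the longest lists, of 120594, 108030 and 93978 peaks. The share of single-library regions over the whole genome was not computed. Peaks of at least 3 factors met in 4 regions, all at the start of Pcdhgc3 or beyond it. The first of these was at the start of Pcdhgc3. The next, chr18:37812451-37816018, reached over the start of Pcdhgc4, where only Oct4BiD and NanogBiD had a start-site summit. Its native Oct4 and Nr5a2 peaks ended before the Oct4BiD peak began and were joined to that peak only by the long NanogBiD peak. The other 2 regions lay in the intron shared by the 21 gamma genes. In chr18:37823518-37828229, about 6.85 kb after the start of Pcdhgc5, native Nr5a2 had 107 tags, Nr5a2BiD 68, NanogBiD 68, native Nanog 31, Sox2BiD 54 and native Sox2 24, and neither Oct4 form had a peak. In chr18:37834671-37838574, about 16.3 kb after that start, native Nr5a2 had 96 tags and a score of 696.25, within the top 1.32% of its library. Nr5a2BiD had 90 tags and a score of 616.54 there, within the top 1.29%. The same region had 42 tags in NanogBiD, 39 in Sox2BiD, 20 in native Sox2, 17 in native Nanog and 11 in Oct4BiD, and it was missing from native Oct4. The heights are not scaled to the depth of a library, so they rank peaks within a library and not between libraries.

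**Figure D4:**
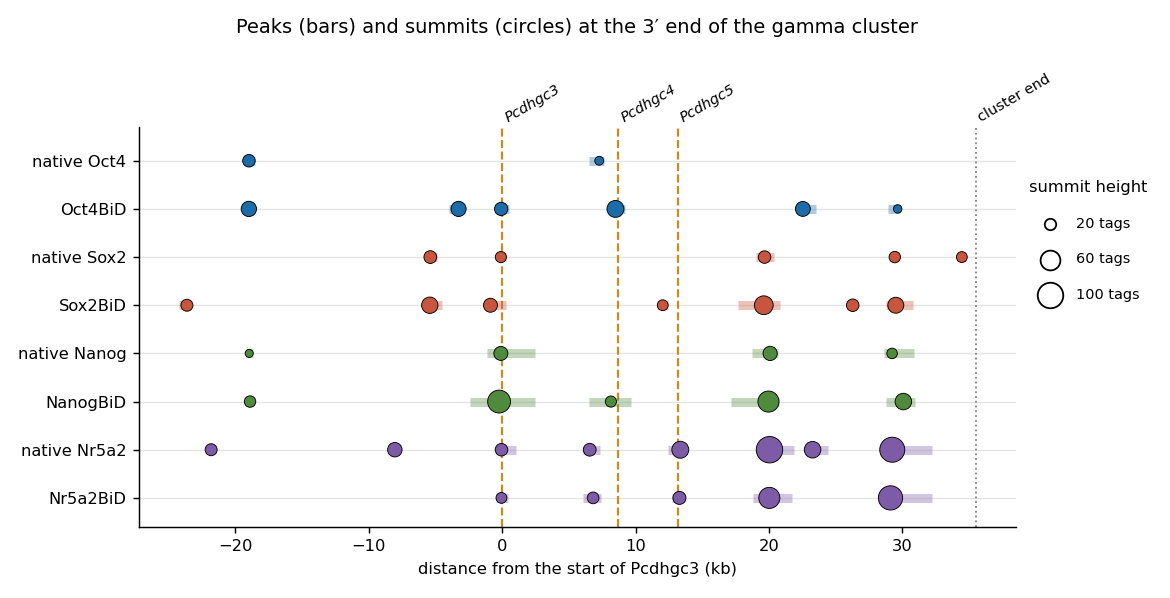
Peaks (bars) and their summits (circles, area in proportion to the summit height in tags) at the 3′ end of the gamma cluster in the 8 libraries, as the distance in kb from the start of Pcdhgc3. Dashed lines mark the starts of Pcdhgc3, Pcdhgc4 and Pcdhgc5. Circles of 7 libraries line up at the start of Pcdhgc3, and the tallest, of 107 tags in native Nr5a2, stands behind Pcdhgc5.

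In the start-site windows, 1 kb to each side, the members had a median GC content of 42.9%, against 51.3% for all genes, and a median CpG ratio (observed over expected) of 0.483, against 0.478. Genes of the whole genome with a start-site summit had a median CpG ratio of 0.596 and those without 0.199. The alpha genes, with no summit, had a median of 0.641 and the beta genes 0.334, and the gamma A and gamma B genes had 0.495 and 0.530, with ranges that overlapped each other. The C-type genes had a median GC content of 51.4%, and their CpG ratios went from 0.251 to 0.820. The 8 members with a summit had a median GC content of 46.9% and a CpG ratio of 0.505, and the 49 without had 42.5% and 0.483.

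**Figure D5:**
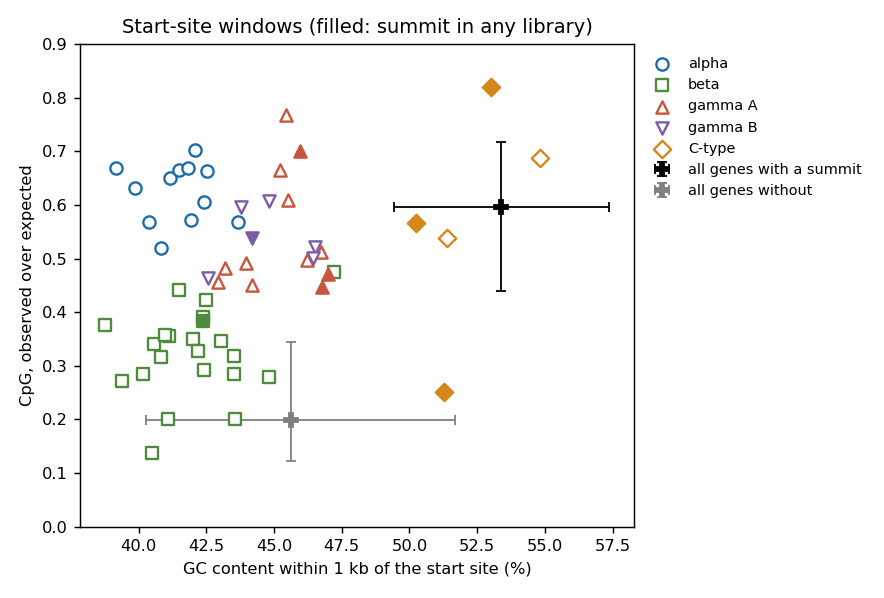
GC content in percent and the CpG ratio, observed over expected, within 1 kb of the start site of each of the 57 members, by class, with filled symbols for the 8 members that had a summit in any library. Crosses give the median and quartiles of all protein-coding genes with and without a start-site summit. The alpha genes lie as high in CpG ratio as genes with a summit but at a lower GC content, and the C-type genes lie at the right.

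Reads from members that resemble each other can be lost, since the authors removed reads of low mapping quality. The share of 32-base words in the start-site window that occur again on chromosome 18, counting exact matches on either strand, had a median of 6.14% over the members and 26.3% at most, against a median of 0.761% for all genes of this chromosome. It was 11.4% for alpha genes, 10.7% for gamma B genes, 2.31% for gamma A genes, 0.406% for beta genes and 0% for C-type genes. The 8 members with a summit had a median of 0.0508% and the 49 without had 7.82%. This share does not measure which reads were lost, and its part in the counts was not tested.

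Known binding motifs were also looked up in these windows, on both strands. The octamer of Oct4 (ATGCAAAT) occurred in 8 members (14.0%, against 9.22% of all genes), none of which had a summit in an Oct4 library. The Sox motif (CCATTGTT) occurred in 10 (17.5%, against 5.90%), none of which had a summit in a Sox2 library. Few members could show such an overlap, since only 2 had a start-site summit of either Oct4 form and 6 of either Sox2 form. How often all genes with these motifs had a summit of the factor was not computed, so neither absence can be judged. The Nanog motif (GCCATTA) occurred in 9 members (15.8%, against 11.8%), the NR5A motif in 4 (7.02%, against 18.4%) and the AP-1 motif in 11 (19.3%, against 24.3%). The CTCF motif occurred in 6 (10.5%, against 1.73%), all of them alpha genes, namely Pcdha1, Pcdha4, Pcdha6, Pcdha7, Pcdha8 and Pcdha12. Of the 70 summits in the clusters, 3 had the motif of their own factor within 50 bp. These were the Oct4BiD peak in Pcdhb19, with the octamer (9.09% of the 11, against 9.72% of all Oct4BiD peaks), and 2 native Nr5a2 peaks with the NR5A motif (16.7% of the 12, against 11.0% of all native Nr5a2 peaks). Over all peaks of a library, the own motif was found in 1.70% (native Nanog) to 11.0% (native Nr5a2). None of the 16 summits at member starts had any of the 6 motifs within 50 bp. The share of all start-site summits with any of them was not computed, so this 0 cannot be judged. None of the 70 cluster summits had the CTCF motif, which only 0.107 to 0.411% of all peaks of a library had.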

How the data were processed

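Flag CUT&Tag peaks of 8 libraries were used, 1 per group, so no test within a factor could be made. None was run over the 4 native and BiD pairs either. Trimming by the authors used Trim Galore 0.6.4, per the methods and the submitters' processing notes. They then aligned to mm10 with Bowtie2 2.4.5, removed repetitive and mitochondrial reads and those of mapping quality under 30 with SAMtools 1.16.1, and called peaks with MACS 1.4.2 (shift size 25 bp, 1 duplicate tag kept). No control library is named. The methods speak of merged replicates, whereas the reporting summary gives the experiment as done once. The deposited peak files give a score, 10 times −log10 of the p-value, with a lowest value of 50. The deposited summit files give a signal, the number of tags at the summit, unscaled for depth. Read totals were not in the files used, so depth limits each list to an unknown extent.

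Start sites were the outermost 5′ ends of GENCODE M21 genes. A gene was counted if a summit lay within 1 kb, peaks were shared if they overlapped by 1 bp, and motifs, GC content and repeated words were read from the GRCm38 genome. Exact binomial and Poisson intervals were computed with SciPy 1.17.1, and counting was checked on simulated data. Genes were named by rule: up to 10 members with a summit in Oct4BiD alone and up to 5 in native Oct4 alone by score, the 8 with summits in most libraries, the C-type genes, up to 3 per direction for the other factors, the ends of each cluster, and the 5 highest Oct4 peaks of each form away from starts. The members and lists were chosen with earlier results of these data known. The alternatives were other distances, peak lists held to equal length or to the top 20000, any protein-coding transcript start, wider clusters and other overlaps. No sequence of this chromosome is printed.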

Additional observations from a re-analysis of the deposited data

Results flagged for a closer look

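The clusters held more summits in the BiD form than in the native form for Oct4 and Sox2, with log2 ratios of 1.46 and 1.32, and fewer for Nanog and Nr5a2, with log2 ratios of −0.17 and −1.26. They drew attention because the direction of the change differed between factors. With 1 library per form the difference between factors was not tested, and the ratio of all peaks of the libraries ran the same way for Oct4, Sox2 and Nr5a2 (0.78, 1.05 and −0.50) and was 0.04 for Nanog. The directions did not stay apart with the top 20000 peaks of each library, where the log2 ratio was 1 for Oct4, 1.58 for Nanog and 0 for Sox2 and Nr5a2.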

How the results depend on the processing

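No paired analysis by replicate number was possible because each group has 1 library, and the 4 factors were not used as pairs for a test. Of 164 recomputed values, 128 stayed within the limits set for a change, 35 moved and 1 turned its direction. These limits were wide. The Sox2 and Nr5a2 log2 ratios, both 0 with the top 20000 peaks, counted as within them. So did the shared share of Sox2BiD cluster peaks, at 33.3% and at 13.3% when 50% of the peak had to overlap. With the top 20000 peaks of each library the log2 ratio of cluster summits for Nanog turned to 1.58, the summit density in native Nanog fell to 0.189 of the genome, and the cluster summits numbered 2 in native Oct4, 4 in Oct4BiD, 2 in native Sox2, 2 in Sox2BiD, 1 in native Nanog, 3 in NanogBiD, 2 in native Nr5a2 and 2 in Nr5a2BiD. The members with a start-site summit were then 1 in Oct4BiD, 1 in NanogBiD and 0 in native Sox2, Sox2BiD, native Nanog, native Nr5a2 and Nr5a2BiD, with 1 in Oct4BiD alone and 0 in Sox2BiD alone. With lists of equal length, Oct4BiD had 7 cluster summits and Sox2BiD 8, with 1 member each in Oct4BiD alone, Sox2BiD alone and native Sox2 alone. Within 2 kb of the start, native Oct4 had 1 member, Oct4BiD alone 1 and Nr5a2BiD alone 1. Within 500 bp, NanogBiD had 1, NanogBiD alone 0 and native Sox2 alone 1. Clusters widened by 20 kb held 15 summits in native Nanog, 14 in NanogBiD, 21 in native Nr5a2 and 9 in Nr5a2BiD. Peaks counted as shared within 100 bp of summits came to 22.2% for native Nanog and 25% for NanogBiD. By construction, each alternative counts fewer peaks, or other distances, regions or overlaps, and the cause of the turn for Nanog was not tested. The counts per library are small and the depth behind each list is not in the files, so a missing summit means only that none was called.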
